A study of Mus musculus with 36 samples.

Results

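The genes described here are 9 inhibitors and feedback regulators of NF-κB, read out in mouse microglia and astrocytes exposed to TNF-based death stimuli without and with an inhibitor of the RIPK1 kinase. They were chosen by name: Nfkbia, Nfkbib, Nfkbie, Nfkbid, Nfkbiz, Tnfaip3, Tnip1, Tnip3 and Bcl3. All 9 were listed among the 15385 genes of the microglial table and among the 14551 genes of the astrocyte table. The rule lists them by symbol, but the list was drawn up with earlier results of these data known, so counts of its members set beside shares over all genes are a description.

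NF-κB is a family of dimeric transcription factors that drives inflammatory genes in glia and most other cells. In resting cells the dimers are held in the cytoplasm by the classical inhibitors IκBα (Nfkbia), IκBβ (Nfkbib) and IκBε (Nfkbie). These are degraded after TNF receptor engagement, and IκBα is made anew from Nfkbia, itself an NF-κB target gene. A20 (Tnfaip3), a ubiquitin-editing enzyme, and its binding partners ABIN-1 (Tnip1) and ABIN-3 (Tnip3) act further upstream at the receptor complex, while Bcl-3 (Bcl3), IκBNS (Nfkbid) and IκBζ (Nfkbiz) are nuclear members of the IκB family that adjust which NF-κB targets are transcribed.

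The study compared the treatments to separate the part of the TNF response that needs RIPK1 kinase activity. Brains of C57BL/6 pups, aged 2 to 4 days by the labels, were pooled, mixed glia were grown for 12 days, microglia were taken by CD11b selection, and astrocytes were positively selected from the CD11b-negative remainder. Cells were treated for 4 h. There were 4 microglial libraries for each of 6 treatments: DMSO (the vehicle), Nec-1s (N, the RIPK1 inhibitor), TNF/5z-7 (T/5z, in which 5z-7 blocks the kinase TAK1), TNF/Smac/zVAD (T/S/Z, a Smac mimetic and a caspase inhibitor given beside TNF), and either stimulus in the presence of Nec-1s (written T/5z/N or, for the other, T/S/Z/N). There were 3 astrocyte libraries for each of 4 treatments, namely vehicle (spelled DSMO in the astrocyte labels and DMSO here), Nec-1s, T/S/Z and the same with Nec-1s, and T/5z was not among them. There was no group with TNF alone, so the share of TNF itself in a response cannot be told apart from that of its partners. The study describes its replicates in general as biological, from single mice or separate litters. The labels of these libraries do not say which animals or litters a replicate number stands for. With the replicate number as a block, p-values measure how treatment differences vary between the replicate numbers of these cultures.

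Values are log2(FPKM + 1), where FPKM is a fragment count set relative to exon length and library size. A gene was called when limma, fitted over all tested genes with the replicate number as a block, gave an adjusted p under 0.05 and a fold change over 1.5. Every difference is on this log2 scale, on which the fold of a low gene comes out too small. Each microglial replicate had the same gene-by-gene average across its 6 treatments (largest difference 6.67e-05), so a microglial SD does not contain offsets between replicates. By the labels the 2 cell types were sequenced by different providers, while the study's methods name one platform. The tables were normalized separately, and they used different exon lengths for 9 of the 9 genes, so levels in microglia and astrocytes are set side by side with no test. Total counts were not in the tables and the depth is unknown. In bulk RNA, fewer cells of a type and less RNA per cell cannot be told apart.

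The labelled cell types were checked against marker genes. The 10 microglial markers (among them Csf1r, C1qa and Aif1) summed to 6909 to 8521 FPKM in microglial libraries and to 53.8 to 94.1 FPKM in astrocyte libraries. The 8 astrocyte markers (among them Gfap, Aqp4 and Slc1a3) summed to 2902 to 3358 FPKM in astrocyte libraries and to 4.88 to 21.6 FPKM in microglial libraries. The markers matched both labels, with a microglial remainder in the astrocyte libraries. Within the microglial libraries the astrocyte markers summed to 6.98 to 8.93 FPKM in DMSO, 11.8 to 21.6 with T/5z and 13.2 to 19.3 with T/S/Z, and to 7.91 to 8.86 with T/5z/N and 4.88 to 5.90 with T/S/Z/N. They were thus higher with each stimulus than with DMSO and lower again when Nec-1s was added, the direction of many of the members' differences. The 4 fibroblast and meningeal markers (Col1a1, Col1a2, Dcn and Lum) summed to 4.65 to 6.46 FPKM in DMSO, 7.94 to 14.7 with T/5z and 5.27 to 6.30 with T/5z/N, and to 3.88 to 6.30 with T/S/Z and 2.59 to 3.97 with T/S/Z/N. The part of such cells in the microglial results was not tested.

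The stretches of promoter that follow are shown because NF-κB itself is known to induce several of these genes. Promoter windows of 300 bases around RefSeq transcription starts (build GRCm38.p6) were found by symbol for 8 of the 9 genes, and both strands were searched for the NF-κB (κB) consensus by name. Of these 8 genes, 7 (87.5%) had at least 1 match, beside 2581 of all 27025 genes with a window (9.55%) and 2779 of all 32851 windows (8.46%). Nfkbib had none in its window, which says only that the letters are not there. The capitals mark the match, on either strand, and each run is written 5′ to 3′ on the strand of the gene. By GENCODE M21, the Nfkbia, Nfkbie and Tnip1 stretches lie upstream of the gene, those of Nfkbid and Tnip3 and the first of Tnfaip3 lie in introns, the other Tnfaip3 stretch has 8 of its 30 bases in an exon, and that of Bcl3 is exonic.
Nfkbia, chr12:55492657-55492686, minus strand, match at -29 from the start: tgactggcttGGAAATTCCCcgcgcctgac
Nfkbie, chr17:45555584-45555613, plus strand, match at -106: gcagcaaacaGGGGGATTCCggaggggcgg
Tnfaip3, chr10:19015516-19015545, minus strand, match at -125: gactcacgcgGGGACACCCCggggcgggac
Tnfaip3, chr10:19015403-19015432, minus strand, match at -12: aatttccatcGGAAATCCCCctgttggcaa
Tnip1, chr11:54962978-54963007, minus strand, 3 overlapping matches from -58 to -56: tccatcatgGGGGAATTCCCCtcctgcctc
Tnip3, chr6:65590334-65590363, plus strand, match at -54: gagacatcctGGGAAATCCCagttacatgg
Nfkbid, chr7:30422170-30422199, plus strand, the second of 3 starts, match at -226: gccccgccctGGGACTTCCCagagcaccac
Nfkbid, chr7:30422215-30422244, plus strand, the same start, match at -181: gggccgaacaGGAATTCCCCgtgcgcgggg
Bcl3, chr7:19822734-19822763, minus strand, match at 2 past the start: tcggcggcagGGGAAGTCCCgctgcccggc

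The annotation marked Nfkbib, Tnip1 and Bcl3 as confounded in both tables, a mark it does not define. In GENCODE M21, 314 of the 2169 exon bases of Nfkbib are shared with Ccer2 on the opposite strand, and 161 of the 2475 exon bases of Bcl3 are shared with the antisense gene Gm16175. The microglial library protocol is not described as strand-specific, so reads from these partners cannot be told apart there.

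In microglia, both stimuli raised most of these genes, and the share of the rise that Nec-1s took back ranged from none to all of it. T/5z raised 7 of the 9 genes, where 11.1% of all 10524 tested genes were called higher. T/S/Z raised 9 of 9, where 12.2% were called higher. Over the 9 genes the median difference from DMSO was 2.23 for the former stimulus and 2.52 for the latter, beside -0.058 and -0.085 over all tested genes. Adding Nec-1s to T/5z lowered 5 of the 9 (Nfkbib, Nfkbie, Nfkbiz, Tnfaip3 and Tnip1), where 4.52% of all tested genes were called lower. Adding it to T/S/Z lowered 6 (Nfkbia, Nfkbib, Nfkbid, Nfkbiz, Tnfaip3 and Tnip1), where 6.72% were called lower, and raised 1 (Bcl3), where 5.35% were called higher. The comparison of a stimulus with DMSO and that of Nec-1s with the stimulus share the libraries treated with the stimulus alone.

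**Figure D1:**
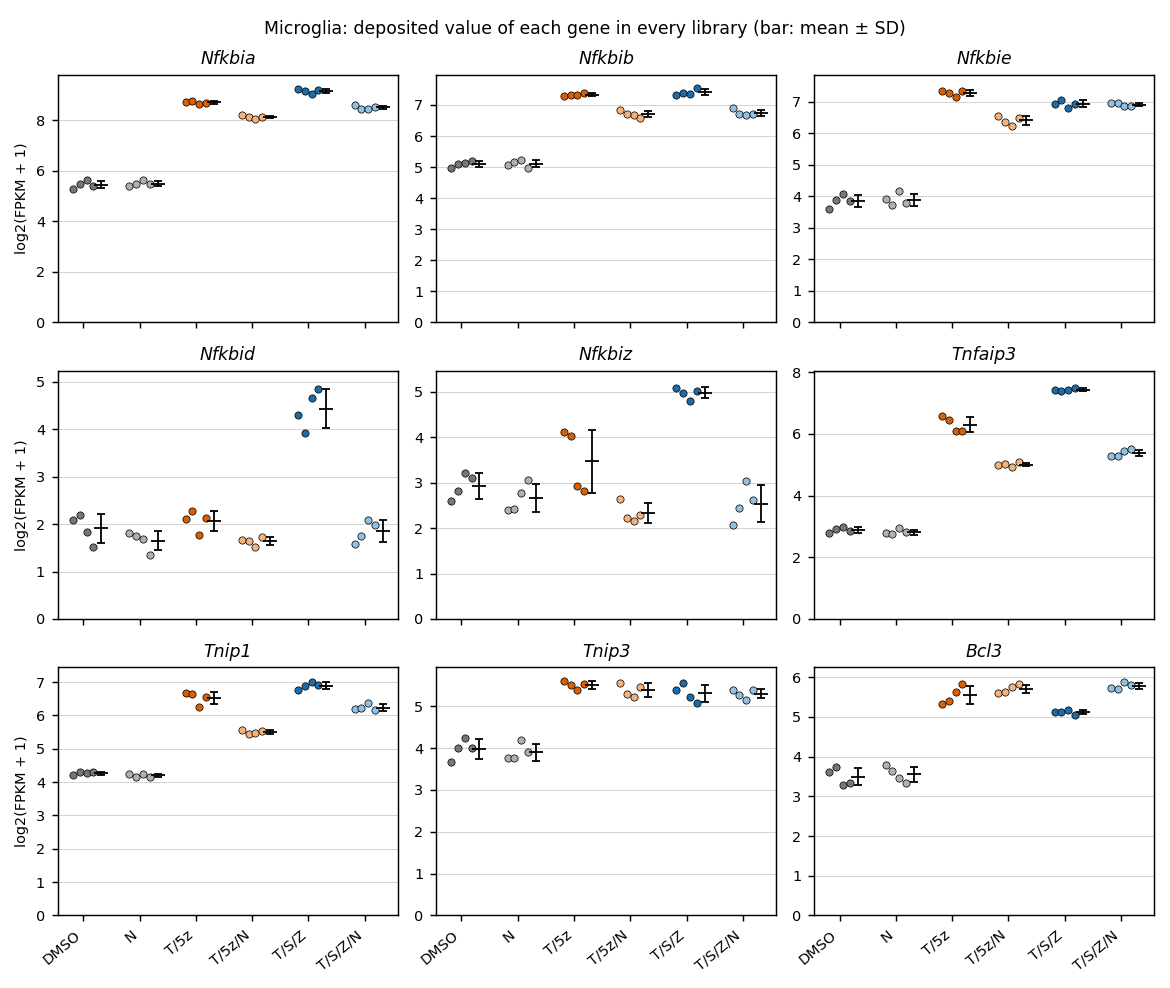
Each panel plots 1 gene in microglia, with log2(FPKM + 1) on the vertical axis and the 6 treatments on the horizontal axis. Points are the 4 libraries of a treatment and the bar is their mean ± SD. Nfkbid stands at 3.92 to 4.85 in T/S/Z libraries and at 2.28 or lower in all others, and the 4 Nfkbiz values with T/5z lie in a higher and a lower pair.

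Among the classical inhibitors, Nfkbia (ENSMUSG00000021025, chromosome 12, 55489410 to 55492647, minus strand) was the most abundant of the 9 genes in DMSO microglia. Its 4 DMSO libraries had log2 values of 5.29, 5.47, 5.62 and 5.41. With T/5z the values were 8.74, 8.78, 8.66 and 8.68, and with T/5z/N they were 8.20, 8.12, 8.06 and 8.15. The 3 groups did not overlap, and every T/5z/N library lay between DMSO and T/5z. T/5z raised Nfkbia by 3.27 (SE 0.070, limma adjusted p 3.70e-07). The difference between T/5z/N and T/5z was -0.58 (SE 0.042, limma adjusted p 2.27e-05), a fold of 1.499 that lies just under the limit of 1.5, and it was called after median centring (-0.63) and without replicate 1 or 4 (-0.60 to -0.56 over the replicates left out).

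The T/S/Z libraries had Nfkbia values of 9.22, 9.16, 9.04 and 9.20, and those with Nec-1s added had 8.60, 8.46, 8.45 and 8.53. All 4 T/S/Z libraries were above all other microglial libraries for this gene. T/S/Z raised Nfkbia by 3.71 (SE 0.080, limma adjusted p 6.26e-08), and with Nec-1s it fell by 0.64 (SE 0.053, adjusted p 6.30e-05). By quantile normalization that log2 difference was -0.37 and under the fold limit. Of the log2 rise of Nfkbia, Nec-1s took back 17.9% when it was measured with T/5z and 17.4% when the stimulus was T/S/Z. Of the rise in FPKM, on the linear scale, the shares were 37.2% and 39.0%.

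Nfkbib, which encodes IκBβ (ENSMUSG00000030595, chromosome 7, 28758251 to 28766640, minus strand), ran from 4.98 to 5.19 in DMSO, 7.28 to 7.39 with T/5z and 7.33 to 7.54 with T/S/Z. Both stimuli therefore set it clearly above DMSO, by 2.23 (SE 0.044) and 2.30 (SE 0.049). Nec-1s brought it to 6.59 to 6.82 in the former case and 6.67 to 6.89 in the latter, below the stimulus alone in 4 of 4 pairs each. Nec-1s lowered it by a log2 difference of -0.63 (SE 0.056, limma adjusted p 6.35e-05) after T/5z and -0.66 (SE 0.065, adjusted p 0.000131) after T/S/Z. Both calls were lost by quantile normalization (-0.52 and -0.41), and the first was lost without replicate 4 (-0.57).

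Nfkbie, which encodes IκBε (ENSMUSG00000023947, chromosome 17, 45555703 to 45563169, plus strand), was lowered by Nec-1s after T/5z, while no call was made after T/S/Z, and the difference between these effects was itself tested. Its DMSO values were 3.59, 3.89, 4.06 and 3.84. With T/5z they were 7.35, 7.29, 7.16 and 7.34, and with T/5z/N they were 6.55, 6.37, 6.23 and 6.50. The T/S/Z values were 6.93, 7.07, 6.80 and 6.94, and those of T/S/Z/N were 6.96, 6.95, 6.86 and 6.85. The T/5z/N libraries thus lay under all T/5z libraries, while the T/S/Z/N libraries lay among those of T/S/Z. T/5z raised Nfkbie by 3.44 (SE 0.10) and T/S/Z by 3.09 (SE 0.093). With Nec-1s it fell by 0.87 (SE 0.040, limma adjusted p 3.10e-06) after T/5z, and following T/S/Z the difference was -0.028 (95% interval -0.14 to 0.085, adjusted p 0.638). The Nec-1s effect after T/S/Z minus that after T/5z was 0.84 (SE 0.073, limma adjusted p 2.63e-06). By quantile normalization the difference after T/S/Z was 0.19, still under the fold limit.

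The make-up of the classical IκB transcripts is described here with no test. Nfkbia, Nfkbib and Nfkbie summed to 89.7 ± 7.53 FPKM (SD, n = 4) in DMSO microglia, 735 ± 21.2 in T/5z libraries and 860 ± 42.6 in T/S/Z libraries. Of this sum, Nfkbia made up 47.7% ± 1.44 in DMSO, 57.1% ± 1.14 under T/5z and 66.2% ± 1.11 under T/S/Z. The Nfkbie share lay between 13.8% and 16.0% in DMSO, and it was 21.1% ± 0.85 with T/5z and 14.1% ± 0.77 in T/S/Z libraries. With Nec-1s the Nfkbie share was 18.1% ± 1.07 in T/5z/N and 20.2% ± 0.79 in T/S/Z/N libraries, so it moved in opposite directions, with no overlap between libraries without and with Nec-1s. The Nfkbib share, 37.3% ± 2.03 in DMSO, lay between 17.6% and 23.1% in all stimulated libraries. In astrocytes the Nfkbia share was 61.4% ± 2.36 (SD, n = 3) in DMSO, 78.8% ± 0.56 with T/S/Z and 77.9% ± 1.03 with T/S/Z/N, of sums of 25.7 ± 3.78, 498 ± 66.4 and 329 ± 11.4 FPKM.

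**Figure D2:**
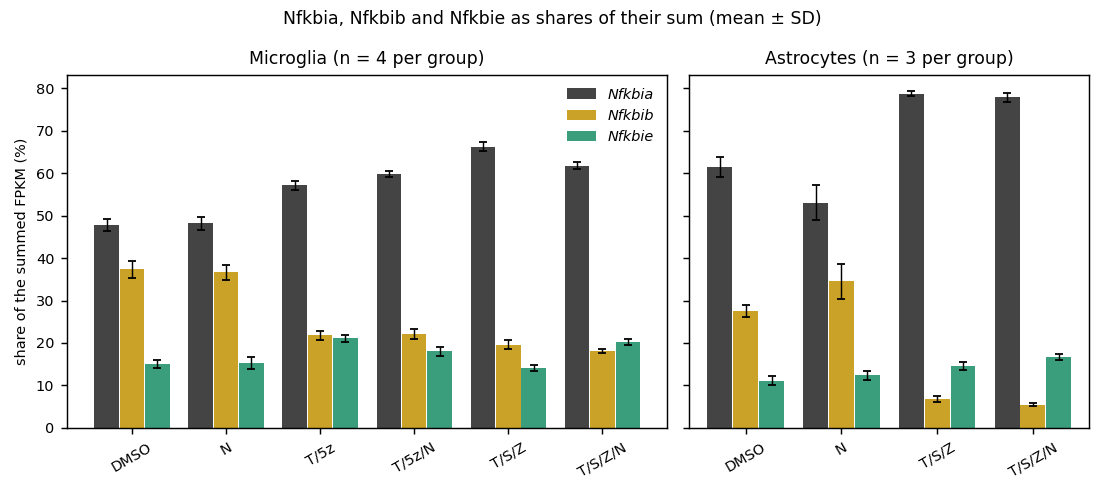
The bars give Nfkbia, Nfkbib and Nfkbie as percent of their summed FPKM in each treatment, in microglia (n = 4) and astrocytes (n = 3), with the mean and SD over libraries. Nfkbia rises from 47.7% in DMSO microglia to 66.2% with T/S/Z, and Nfkbie stands higher with T/S/Z/N (20.2%) than with T/S/Z (14.1%).

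Tnfaip3, which encodes A20 (ENSMUSG00000019850, chromosome 10, 19000910 to 19015410, minus strand), had the largest rise of the 9 genes with T/S/Z in microglia. Its DMSO values were 2.79, 2.91, 2.99 and 2.85. With T/5z they were 6.56, 6.43, 6.08 and 6.10, and with T/5z/N they were 4.98, 5.02, 4.94 and 5.07. The T/S/Z values were 7.42, 7.40, 7.42 and 7.49, and those of T/S/Z/N were 5.27, 5.29, 5.45 and 5.50. These 5 groups did not overlap. T/5z raised it by 3.41 (SE 0.11, limma adjusted p 9.44e-07) and T/S/Z by 4.55 (SE 0.059, adjusted p 9.29e-09), a fold of 23.4 on this scale. T/S/Z exceeded T/5z by 1.14 (SE 0.096, limma adjusted p 0.000151). With Nec-1s it fell by 1.29 (SE 0.085, adjusted p 1.49e-05) after T/5z and by 2.05 (SE 0.047, adjusted p 2.40e-07) after T/S/Z. The effect after T/S/Z minus that after T/5z was -0.77 (SE 0.13, limma adjusted p 0.000816), and by quantile normalization this difference was -0.58 and under the fold limit. Nec-1s took back 37.8% of the log2 rise under T/5z and 45.2% of that under T/S/Z (65.6% and 79.3% of the rise in FPKM), and Tnfaip3 stayed above DMSO by 2.12 with T/5z/N and by 2.50 with T/S/Z/N.

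Tnip1, which encodes ABIN-1 (ENSMUSG00000020400, chromosome 11, 54910785 to 54962917, minus strand), ran from 4.21 to 4.30 in DMSO, 6.26 to 6.66 with T/5z and 6.78 to 7.01 with T/S/Z. T/5z raised it by 2.26 (SE 0.076) and T/S/Z by 2.63 (SE 0.054). It ran from 5.44 to 5.56 with T/5z/N and from 6.16 to 6.37 with T/S/Z/N. With Nec-1s it fell by 1.03 (SE 0.063, limma adjusted p 1.01e-05) after T/5z and by 0.66 (SE 0.045, adjusted p 2.51e-05) after T/S/Z, the latter not called by quantile normalization (-0.45).

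Tnip3, which encodes ABIN-3 (ENSMUSG00000044162, chromosome 6, 65525313 to 65634040, plus strand), rose with both stimuli and was not called with Nec-1s. It ran from 3.66 to 4.23 in DMSO, 5.39 to 5.60 with T/5z and 5.07 to 5.55 with T/S/Z. The rises were 1.53 (SE 0.11) and 1.33 (SE 0.12). The libraries with Nec-1s, at 5.21 to 5.56 after T/5z and 5.15 to 5.40 after T/S/Z, overlapped those without it. The differences with Nec-1s were -0.13 (95% interval -0.23 to -0.022, limma adjusted p 0.0481) after T/5z and -0.0053 (-0.20 to 0.19, adjusted p 0.963) after T/S/Z, neither called.

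The nuclear IκB family members Nfkbid and Nfkbiz were the genes not called with T/5z, and both were raised by T/S/Z. Nfkbid, which encodes IκBNS (ENSMUSG00000036931, chromosome 7, 30421732 to 30428746, plus strand), had DMSO values of 2.08, 2.20, 1.84 and 1.52. With T/5z they were 2.11, 2.28, 1.77 and 2.12, and with T/S/Z they were 4.30, 3.92, 4.65 and 4.85. Libraries with T/S/Z/N had 1.59, 1.75, 2.09 and 1.98, back in the range of DMSO. T/S/Z raised Nfkbid by 2.52 (SE 0.23, limma adjusted p 3.89e-05), whereas with T/5z the difference was 0.16 (95% interval -0.12 to 0.44, adjusted p 0.270). T/S/Z exceeded T/5z by 2.36 (SE 0.19, limma adjusted p 0.000120). With Nec-1s after T/S/Z it fell by 2.58 (SE 0.11, adjusted p 3.38e-06), which is 102% of the log2 rise (86.1% to 126% over replicates), and T/S/Z/N differed from DMSO by -0.057 (95% interval -0.45 to 0.33). After T/5z the Nec-1s difference was -0.43 (SE 0.080, adjusted p 0.00295), under the fold limit. The effect after T/S/Z minus that after T/5z was -2.15 (SE 0.22, limma adjusted p 1.37e-05).

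Nfkbiz, which encodes IκBζ (ENSMUSG00000035356, chromosome 16, 55811375 to 55838899, minus strand), had DMSO values of 2.59, 2.82, 3.22 and 3.11. With T/5z they were 4.11, 4.02, 2.93 and 2.82, so replicates 1 and 2 lay above all DMSO libraries and replicates 3 and 4 among them. The T/S/Z values were 5.09, 4.98, 4.80 and 5.02, and with T/S/Z/N they were 2.06, 2.45, 3.03 and 2.61. The T/5z difference from DMSO was 0.54 (SE 0.32, limma adjusted p 0.181) and was not called, while T/S/Z raised Nfkbiz by 2.04 (SE 0.13, adjusted p 7.34e-06). With Nec-1s after T/S/Z it fell by 2.43 (SE 0.17, limma adjusted p 2.78e-05), which is 119% of the log2 rise. After T/5z it fell by 1.14 (SE 0.19, adjusted p 0.00146), to 2.65, 2.22, 2.15 and 2.29. These T/5z/N values lay 0.61 under DMSO (log2 difference -0.61, SE 0.16, limma adjusted p 0.0171), a call that was lost without replicate 3 or 4, with the other groups of the table in the fit, on log2(FPKM + 5), or by quantile normalization. The effect of Nec-1s after T/S/Z minus that after T/5z was -1.29 (SE 0.37, adjusted p 0.0215), and it was not called without replicate 4.

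Bcl3 (ENSMUSG00000053175, chromosome 7, 19808462 to 19822770, minus strand) moved the other way with Nec-1s. Its DMSO values were 3.61, 3.73, 3.29 and 3.34. With T/5z they were 5.33, 5.40, 5.63 and 5.83, and with T/5z/N they were 5.61, 5.62, 5.76 and 5.82. Values in T/S/Z libraries were 5.13, 5.12, 5.18 and 5.06, and addition of Nec-1s gave 5.74, 5.70, 5.87 and 5.80. Every T/S/Z/N library was thus above every T/S/Z library, while the T/5z and T/5z/N libraries overlapped. T/5z raised Bcl3 by 2.05 (SE 0.15, limma adjusted p 2.58e-05) and T/S/Z by 1.63 (SE 0.086, adjusted p 2.60e-06). Adding Nec-1s to T/S/Z raised it by a further 0.65 (SE 0.045, limma adjusted p 2.78e-05), a call lost after median centring (0.58). After T/5z the Nec-1s difference was 0.16 (SE 0.053, adjusted p 0.0408), and the difference between these effects was 0.50 (SE 0.099, adjusted p 0.00239), both under the fold limit.

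**Figure D3:**
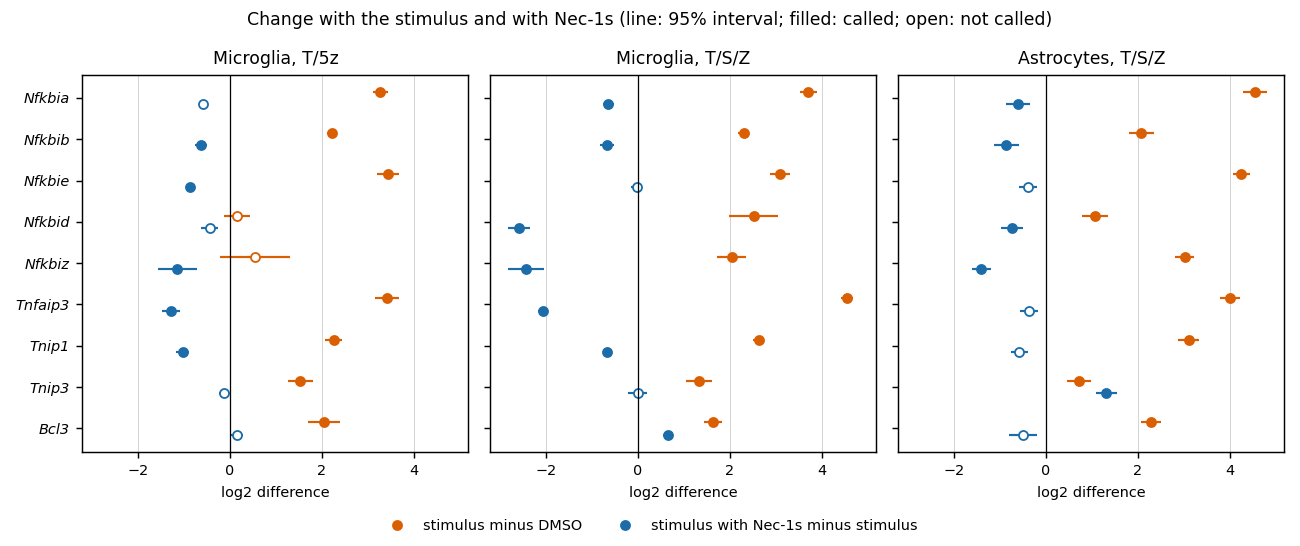
For each gene, the horizontal axis gives the log2 difference of stimulus minus DMSO (orange) and of stimulus with Nec-1s minus stimulus (blue), with 95% intervals from limma. Filled points were called and open points were not. In astrocytes, Nfkbid and Tnip3 entered the test only through stimulated libraries. Their filled points there are kept out of the counts in the text. With T/S/Z in microglia, Nfkbid and Nfkbiz have blue points at -2.58 and -2.43, Nfkbie and Tnip3 have them at -0.028 and -0.0053, and Bcl3 has it at 0.65.

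Against DMSO, 7 of the 9 genes stayed higher with T/5z/N, where 6.16% of all tested genes were called higher, and 1 (Nfkbiz) was called lower, where 6.69% were. In T/S/Z/N libraries, 7 of 9 stayed higher, where 6.20% were called higher, and Nfkbid and Nfkbiz were not called. In the direct comparison of the stimuli, T/S/Z exceeded T/5z for 3 of the 9 (Nfkbid, Nfkbiz and Tnfaip3), where 5.42% were called higher. The Nec-1s effect differed between the stimuli for 4 of 9. It was higher after T/S/Z for Nfkbie, where 2.70% of genes were called in that direction, and lower for Nfkbid, Nfkbiz and Tnfaip3, where 3.77% were.

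Nec-1s alone gave no call among the 9 genes, with differences from DMSO of -0.26 to 0.064 in microglia and -0.32 to 0.22 in astrocytes. In microglia limma called 0 of 9, where 0% of all tested genes (0 of 10524) were called, with 892 genes and 2 of the 9 (Nfkbid and Nfkbiz) at an unadjusted p under 0.05. The differences of those 2 genes were -0.26 each (95% intervals -0.42 to -0.098 and -0.44 to -0.093). In astrocytes limma called 0 of 7, without Nfkbid and Tnip3 for the reason given below, where 0.0144% (2 of 13842) were called. There, 790 genes and 1 of the 7 (Nfkbia, -0.32, 95% interval -0.62 to -0.027) had an unadjusted limma p under 0.05.

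In astrocytes, Nfkbid and Tnip3 entered the test only through the stimulated libraries, since their values were under the minimum of 1 in every library with vehicle or Nec-1s, and they are kept out of the counts here. Of the other 7 genes, T/S/Z raised 7, where 6.39% of all 13842 tested genes were called higher. Their median difference was 3.10, beside -0.11 over all tested genes. Adding Nec-1s lowered 3 of the 7 (Nfkbia, Nfkbib and Nfkbiz), where 1.59% of genes were called lower, and raised 0, where 1.51% were called higher. Compared with DMSO, T/S/Z/N left 7 of 7 higher, where 4.36% were called higher. Nfkbid and Tnip3 are described by their values and by the fit with no filter on low values, in which every gene was tested. The microglial markers in these libraries summed to 83.2 to 91.9 FPKM with DMSO, 53.8 to 54.5 with T/S/Z and up to 81.9 when Nec-1s was added. The fibroblast and meningeal markers summed to 370 to 410, 82.5 to 92.3 and 321 to 332 FPKM in the same groups, and the 6 oligodendrocyte markers listed to 97.5 to 115, 56.8 to 82.4 and 65.5 to 69.6 FPKM. What part such cells had in the astrocyte results was not tested.

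**Figure D4:**
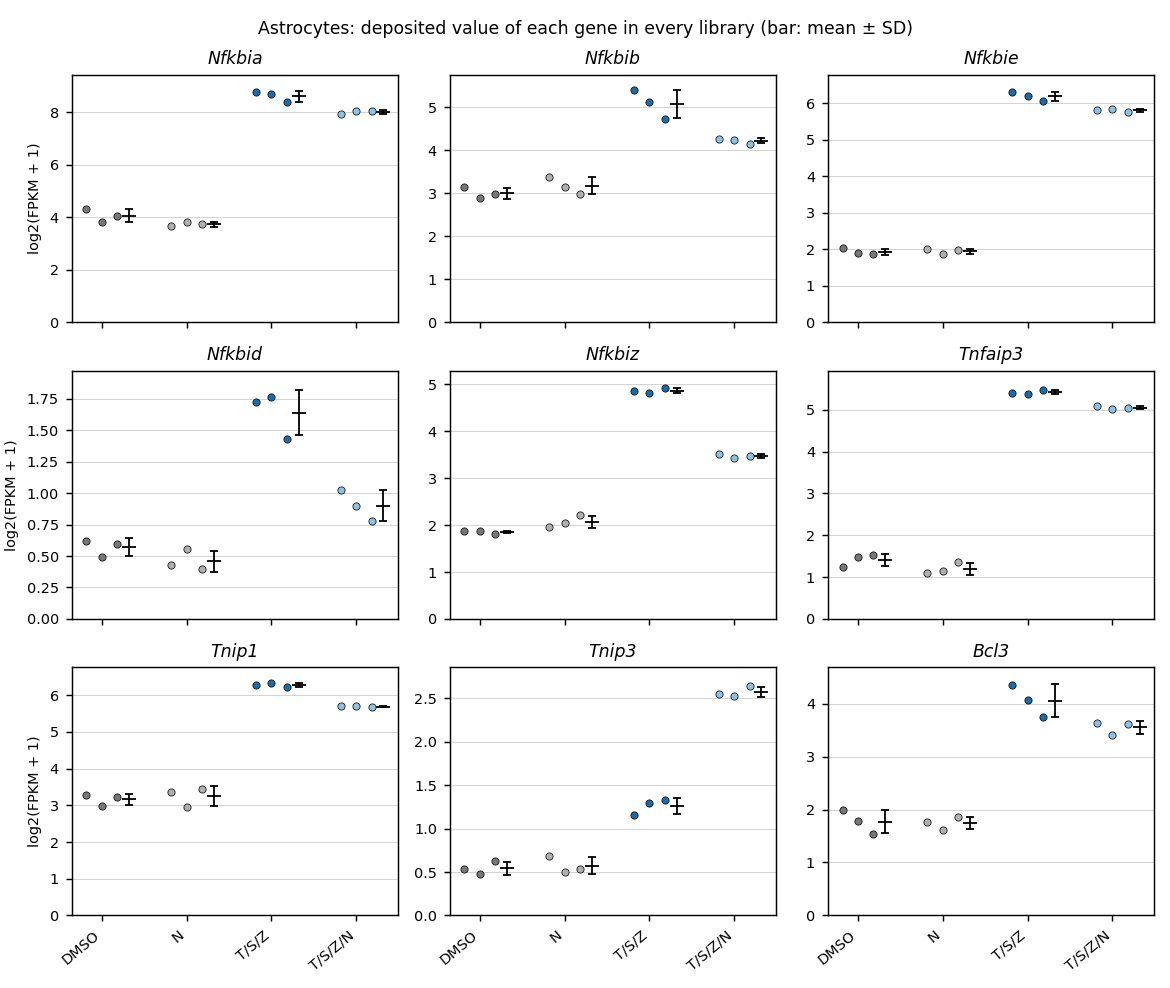
Each panel plots 1 gene in astrocytes, with log2(FPKM + 1) on the vertical axis and the 4 treatments on the horizontal axis. Points are the 3 libraries of a treatment and the bar is their mean ± SD. In every panel the T/S/Z libraries lie above DMSO, and Tnip3 stands higher with T/S/Z/N (2.53 to 2.64) than with T/S/Z (1.16 to 1.32).

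Nfkbia had the largest rise among the 9 genes in astrocytes. Its DMSO libraries had log2 values of 3.82, 4.06 and 4.31 in ascending order, the T/S/Z libraries 8.38, 8.68 and 8.77, and the T/S/Z/N libraries 7.93, 8.03 and 8.06. T/S/Z raised it by 4.55 (SE 0.11, limma adjusted p 3.92e-07). With Nec-1s it fell by 0.60 (SE 0.11, adjusted p 0.0230), and that call was lost without replicate 1 or 2 (log2 differences from -0.73 to -0.49 over the replicates left out) and by quantile normalization (-0.57). Nfkbib rose by 2.08 (SE 0.11) and fell by 0.86 with Nec-1s (SE 0.12, limma adjusted p 0.00830). Nfkbie, at 1.87 to 2.04 in DMSO, rose by 4.25 (SE 0.078), and its Nec-1s difference of -0.38 (95% interval -0.58 to -0.19) was under the fold limit.

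Tnfaip3 ran from 1.25 to 1.52 in DMSO astrocytes, 5.38 to 5.48 with T/S/Z and 5.02 to 5.09 with T/S/Z/N. It rose by 4.01 (SE 0.093, limma adjusted p 3.50e-07), and the Nec-1s difference was -0.37 (95% interval -0.56 to -0.18, adjusted p 0.0401), under the fold limit. In microglia the corresponding difference was -2.05 (95% interval -2.16 to -1.95). Nec-1s took back 9.18% of the log2 rise in astrocytes and 45.2% in microglia, or 24.0% and 79.3% of the rise in FPKM, values set side by side with no test. Tnip1 rose by 3.10 (SE 0.094) in astrocytes and its Nec-1s difference was -0.58 (SE 0.079, limma adjusted p 0.00872), also under the fold limit and called without replicate 3 (-0.59 to -0.55 over the replicates left out).

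Tnip3 was the gene that Nec-1s raised in astrocytes. Its log2 values were 0.47, 0.53 and 0.62 in DMSO, 1.16 to 1.32 with T/S/Z, and 2.53, 2.55 and 2.64 with T/S/Z/N, each in ascending order. The groups did not overlap. The difference was 0.72 for T/S/Z against DMSO and 1.31 for Nec-1s added to T/S/Z, and with no filter on low values the limma adjusted p was 0.00391 for the former and 0.00106 for the latter. From the steps between low values, these levels rest on an estimated 93 to 132 reads per library in DMSO, 296 to 356 with T/S/Z and 1151 to 1272 with T/S/Z/N. On log2(FPKM + 5) the rise was 0.23 and not called. The level in astrocytes was 3.08% of the microglial level in DMSO, 3.60% with T/S/Z and 12.9% with T/S/Z/N. The exon length behind the FPKM of Tnip3 was 10916 bases in astrocytes and 4038 in microglia. The same reads thus give a lower FPKM in astrocytes, and these percentages contain that difference. Of the microglial markers, Aif1 stood at 0.43% to 0.79% and Csf1r at 0.43% to 0.69% over the 4 treatments. The part of residual microglia in the Tnip3 signal was not tested.

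Of the nuclear members, Nfkbid was low in astrocytes, at 0.49, 0.59 and 0.62 in DMSO, 1.43, 1.72 and 1.76 with T/S/Z, and 0.78, 0.90 and 1.03 when Nec-1s was added. It rests on an estimated 21 to 28, 86 to 120 and 37 to 53 reads per library in these groups. The difference was 1.07 for T/S/Z against DMSO and -0.74 for Nec-1s added to T/S/Z. With no filter on low values the limma adjusted p was 0.00109 for the former and 0.0112 for the latter, and on log2(FPKM + 5) neither was called (0.38 and -0.28). Nfkbiz ran from 1.82 to 1.87 in DMSO, 4.82 to 4.93 with T/S/Z and 3.42 to 3.51 with T/S/Z/N. It rose by 3.02 (SE 0.088, limma adjusted p 1.08e-06) and fell by 1.40 with Nec-1s (SE 0.085, adjusted p 0.000276), which is 46.4% of the log2 rise in astrocytes beside 119% in microglia (70.9% and 107% of the rise in FPKM). Nfkbiz with T/S/Z/N thus stayed 1.62 above DMSO in astrocytes (SE 0.084, adjusted p 0.000111). Bcl3 rose by 2.29 (SE 0.093), and its Nec-1s difference of -0.50 (95% interval -0.81 to -0.20, limma adjusted p 0.0604) was not called, though it was without replicate 3 (-0.69).

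The order of the levels was read per exon length within each table. In DMSO microglia the means were 42.8 FPKM for Nfkbia, 33.4 for Nfkbib, 18.3 for Tnip1, 14.9 for Tnip3, 13.5 for Nfkbie, 10.3 for Bcl3, 6.74 for Nfkbiz, 6.39 for Tnfaip3 and 2.82 for Nfkbid. In this order Tnip3 overlapped Tnip1, Nfkbie overlapped Tnip3, Bcl3 overlapped Nfkbie and Tnfaip3 overlapped Nfkbiz in the ranges over the 4 libraries. Within replicates, Tnip1 was above Tnip3 and Tnip3 above Nfkbie in 4 of 4, so overlap of the ranges does not show that these levels were alike. In T/S/Z libraries Nfkbia remained at the top (570 FPKM) and Tnfaip3 moved to the next place (172 FPKM), overlapping Nfkbib (169 FPKM). In DMSO astrocytes the range ran from 15.9 FPKM for Nfkbia to 0.46 for Tnip3, which overlapped Nfkbid (0.49).

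The likeness of the patterns over the 24 microglial libraries is given by Pearson's r as a description, since the libraries share treatments and the replicate adjustment. Nfkbia, Nfkbib, Nfkbie, Tnip1 and Tnfaip3 had r of 0.92 to 0.99 with each other. Nfkbid and Nfkbiz had r of 0.88 with each other and of 0.033 to 0.69 with the other 7. Tested genes most like Nfkbia included Ptges and Tlr2 (r of 0.99 or higher). Those most like Tnfaip3 were Cflar, Polr2c and Plekhm3 (0.99), and those most like Nfkbie were Ehd1, Cd69 and Nfe2l2 (0.99 or higher). The genes nearest to Nfkbid were Clk1, Rabgef1 and Arl5b (0.98), and those nearest to Nfkbiz were Adamts1, Plk3 and Zc3h12a (0.93 to 0.94). Nfkbib was nearest to Malt1, Nfkb1 and Junb (0.99), Tnip1 to Nlrp3, Cxcl3 and Gpr84 (0.99), Tnip3 to Rps6ka4, Relb and Tma16 (0.98) and Bcl3 to Traf2, Lrrc8b and Pik3r5 (0.98 to 0.99).

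**Figure D5:**
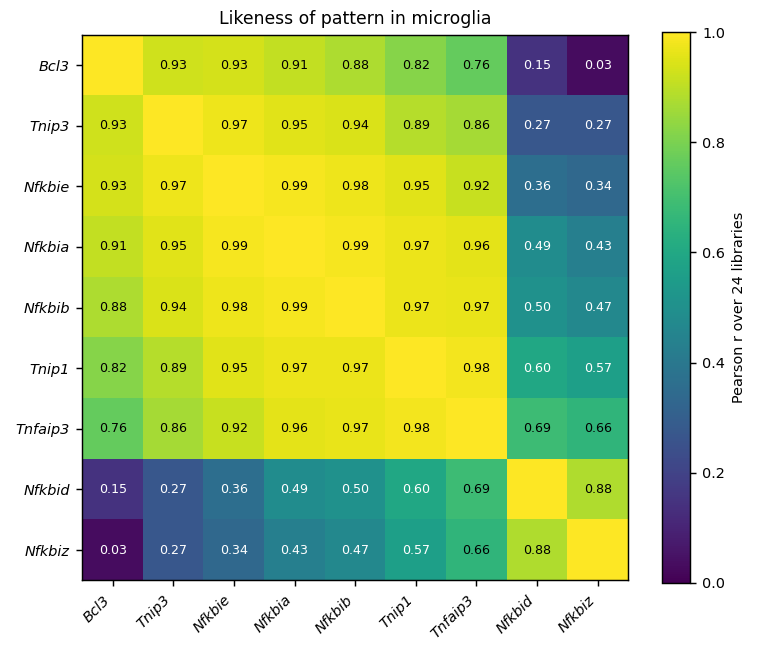
The matrix gives Pearson's r between the log2 values of each pair of genes over the 24 microglial libraries, from 0 (dark) to 1 (yellow). Nfkbid and Nfkbiz form a pair (0.88) with low r to Bcl3 (0.15 and 0.033), and the other 7 genes have r of 0.76 or higher with each other.

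The rest of the pathway was counted by lists, to be read against the shares over all tested genes. With T/5z, 11.1% of these were called higher and 13.3% lower, with T/S/Z 12.2% higher and 17.5% lower in microglia, and 6.39% higher and 8.99% lower in astrocytes. Of the 5 NF-κB subunit genes, T/5z raised 4 and T/S/Z raised 5 in microglia. In astrocytes 4 of the 4 subunits rose that did not depend on stimulated libraries to be tested (Rel did). Nec-1s lowered 0 of the 5 after T/5z (4.52% of all genes) and 1 after T/S/Z (6.72%) in microglia, and 1 of 4 in astrocytes (1.59%). T/S/Z exceeded T/5z for Rel, the c-Rel subunit, by 1.31 (SE 0.11, limma adjusted p 0.000130). Of 10 IKK and related kinases, each stimulus raised 2 and lowered 1 in microglia, and T/S/Z raised 2 in astrocytes, counts too small to read against those shares. The gene lowered by both in microglia was Tab1, a TAK1-binding subunit (-0.68 and -1.06). Nec-1s raised Map3k14, the kinase NIK, by 0.69 (SE 0.061) after T/5z, where 2.64% of all genes were called higher, and by 0.88 (SE 0.068) after T/S/Z, where 5.35% were.

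Of the 13 genes of the receptor complex and its ligases, each stimulus raised 5 in microglia (11.1% and 12.2% of all genes) and T/S/Z raised 6 in astrocytes (6.39%). The largest rise in microglia was that of Traf1, an adaptor of the TNF receptor family, from 1.66 in DMSO to 6.45 under T/5z and 6.76 under T/S/Z. Birc2, which encodes the ubiquitin ligase cIAP1, was 3.47 with T/S/Z and 4.96 with T/5z (log2 difference -1.50, SE 0.092, limma adjusted p 4.00e-05), where 4.42% of all genes were called lower with T/S/Z than with T/5z. With Nec-1s, Birc2 fell by 0.63 (SE 0.058, limma adjusted p 8.11e-05) after T/5z and rose by 0.65 (SE 0.066, adjusted p 0.000157) after T/S/Z. The difference between these effects was 1.28 (SE 0.11, limma adjusted p 3.28e-06). Nec-1s lowered 2 of the 13 after T/5z (Traf1 and Birc2, 4.52% of all genes), 0 after T/S/Z (6.72%) and 1 in astrocytes (Tnfrsf1b, 1.59%).

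Of 18 other inhibitors and feedback genes, T/5z raised 4 and lowered 2 and T/S/Z raised 5 and lowered 1 in microglia, while T/S/Z raised 3 and lowered 1 of the 17 tested in astrocytes. The shares over all genes were 11.1% and 12.2% higher and 13.3% and 17.5% lower in microglia, and the genes lowered were no more frequent than over all genes. Socs1, counted among the genes raised, was tested only through stimulated libraries in both tables, and without it T/5z raised 3, T/S/Z raised 4 and, in astrocytes, T/S/Z raised 2. Socs3, an inhibitor of cytokine receptor signalling, rose in microglia by 3.75 under T/5z and by 4.64 under T/S/Z. Zc3h12a encodes Regnase-1, a ribonuclease that degrades inflammatory mRNAs, and in microglia it fell by 2.22 (SE 0.10, limma adjusted p 4.95e-06) when Nec-1s was added to T/S/Z. N4bp1 rose by 1.05 (SE 0.044) in the same comparison. In astrocytes Zc3h12a fell by 1.13 (SE 0.13, limma adjusted p 0.00425) with Nec-1s.

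The genes whose induction is known to use IκBζ were Il6, Lcn2, Il12b, Csf2 and Csf3. In microglia 4 of the 5 (Il6, Il12b, Csf2 and Csf3) and in astrocytes 3 of the 4 tested (Il6, Csf2 and Csf3) were under the minimum of 1 in every library with vehicle or Nec-1s. They were tested only because the stimulated libraries were higher, so no count of rises over this list is given. Lcn2 rose by 1.79 under T/5z and by 1.69 under T/S/Z in microglia, and it fell by 1.52 and 1.61 with Nec-1s. The mean value of Csf2, a growth factor for myeloid cells, was 1.95 with T/S/Z and -0.022 with T/S/Z/N in microglia, and 4.35 and 2.40 in astrocytes, given as a description with no test. Lcn2, an iron-binding acute-phase protein, rose by 5.06 with T/S/Z in astrocytes and fell by 1.38 with Nec-1s. The mean Il6 value in DMSO microglia was -0.37. Such values below the floor of the scale, that of Csf2 included, come from the adjusted table, and differences from them carry that offset.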

How the data were processed

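The authors had RNA of 36 cultures sequenced and took the reads through alignment and quantification in OmicSoft Array Studio. The deposited values are log2(FPKM + 1), scaled per library to a common 75th percentile (4.11 to 4.16 in microglia, 4.73 to 4.74 in astrocytes). Aligner settings and the genome annotation release are not given in the sources used here. Microglial values had up to 1438 negative entries per library in replicates 1 to 3, left by an adjustment of replicate means that is not described. Groups came from the sample titles.

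Genes with a log2 value of at least 1 in as many libraries as the smallest group (4 or 3) were tested, 10524 in microglia and 13842 in astrocytes. All 9 members passed in both. Tests were 2-sided, by limma 3.58.1 under R 4.3.3 (linear fits, empirical Bayes moderation with a mean trend), the replicate number as block, on the groups compared, with Benjamini-Hochberg adjustment over all tested genes. The scripts were tested on simulated data. The members and gene lists were chosen with earlier results of these data known. Every member was named, with at most 3 list genes per direction and comparison and the 3 genes of highest r per member, except for items not reported here. Alternatives were no replicate block, log2(FPKM + 5), no filter, quantile normalization, median centring, a fit of all groups, no fold limit, and each replicate left out. Reads behind low values were estimated from the smallest step between values at a given exon length. Of these low values, 63.8% to 75.9% per library lay within 0.1 of a whole read, so no count test was made.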

Additional observations from a re-analysis of the deposited data

Results flagged for a closer look

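The effect of Nec-1s in microglia differed between the stimuli for 4 of the 9 genes, by limma's test of the difference itself. Over all tested genes, 2.70% were called higher and 3.77% lower in this test. The effect after T/S/Z minus that after T/5z was 0.84 for Nfkbie, -2.15 for Nfkbid, -1.29 for Nfkbiz and -0.77 for Tnfaip3. The Nfkbiz call was lost without replicate 4, and the Tnfaip3 call was lost by quantile normalization. For Nfkbie, Nec-1s lowered the gene after T/5z and left it within the spread of the libraries after T/S/Z. For Nfkbid the rise itself was called with T/S/Z and not with T/5z. For Nfkbiz the 4 libraries with T/5z were split, at 4.11 and 4.02 against 2.93 and 2.82.

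Bcl3 moved in opposite directions with Nec-1s in the 2 cell types after T/S/Z, higher in 4 of 4 microglial pairs (0.65) and lower in 3 of 3 astrocyte pairs (-0.50). This difference was not tested, since the tables were normalized separately, and the astrocyte value was not called (limma adjusted p 0.0604). Of the 54 sets of 4 microglial libraries examined (9 genes in 6 treatments), 0 had a library far from the others by Dixon's criterion, which chance alone meets in about 1 of 20.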

How the results depend on the processing

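Without Nfkbid and Tnip3 in astrocytes, the genes gave 67 called differences, of which 58 were called in the same direction under every alternative run and 9 were lost under at least 1. Of the 720 alternative values of these differences, 16 were no longer called and 0 changed sign. The run with no fold limit could not lose a call, and the run with no filter could not change a sign. Part of the 720 was thus fixed in advance. The fit with no replicate block called the same 67, so that for example 7 genes were called with T/5z, 9 with T/S/Z and 5 when Nec-1s was added to T/5z. In these comparisons that fit called 2566, 3119 and 748 of all 10524 genes. Whether same-numbered libraries deviate together cannot be read from the microglial table, since its equal replicate means remove such deviations (correlations from -0.46 to 0.26). In astrocytes the correlations ran from -0.14 to 0.41, over 0.1 in 5 of 18 pairs. The block was kept because the comparison was paired in the study.

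With no fold limit, 9 genes in place of 5 were called for T/5z/N against T/5z (5088 of all 10524 genes). For T/S/Z against T/5z, 7 in place of 3 were called (4214 of all). For T/S/Z/N against T/S/Z in astrocytes, without Nfkbid and Tnip3, 6 in place of 3 were called (1083 of all 13842). Quantile normalization left 4 of 7 for T/S/Z/N against T/S/Z in microglia (1100 of all 10524 genes), and Nfkbia, Nfkbib and Tnip1 were lost. Leaving out 1 replicate gave 5 to 6 called genes for T/5z/N against T/5z (714 to 848 of all genes) and 7 to 8 against DMSO (1254 to 1405). It gave 3 to 4 for the difference between the Nec-1s effects (579 to 724). For Nec-1s added to T/S/Z in astrocytes it gave 2 to 5 without Nfkbid and Tnip3 (274 to 761).

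Differences that were not called in the report changed sign in 20 cases. By quantile normalization, Nec-1s against DMSO was -0.0059 for Nfkbib, T/S/Z/N against T/S/Z was 0.19 for Nfkbie and 0.065 for Tnip3, T/S/Z/N against DMSO was 0.066 for Nfkbid, T/S/Z against T/5z was -0.091 for Nfkbib, and the difference between Nec-1s effects was 0.073 for Nfkbia and 0.11 for Nfkbib. Over the replicates left out, Nec-1s against DMSO ran in microglia from -0.026 to 0.084 for Nfkbib and -0.039 to 0.12 for Nfkbie, and in astrocytes from -0.028 to 0.042 for Nfkbie, -0.031 to 0.088 for Tnip3 and -0.19 to 0.071 for Bcl3. T/S/Z/N against T/S/Z ran from -0.059 to 0.0025 for Nfkbie and -0.11 to 0.087 for Tnip3, and T/S/Z/N against DMSO from -0.23 to 0.089 for Nfkbid. The cause of these changes was not tested.

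Over all genes, median centring moved the called split of T/S/Z against DMSO in microglia from 1280 higher and 1838 lower to 1564 and 1406, and that of T/S/Z/N against T/S/Z from 563 and 707 to 351 and 862. In astrocytes quantile normalization moved T/S/Z against DMSO from 885 and 1245 to 999 and 917, and T/S/Z/N against DMSO from 604 and 653 to 686 and 474. Depth limits Nfkbid in astrocytes most, at 16 to 28 estimated reads in libraries with vehicle or Nec-1s.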
